A study of Mus musculus with 19 samples.

Results

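The genes described here are 9 members of fibroblast growth factor (FGF) signalling, chosen by symbol from the 53379 gene rows of a count table of single mouse embryos. They are the ligand Fgf4, the receptors Fgfr1 and Fgfr2, the ligand carrier Fgfbp1, and 5 genes that respond to ERK signalling, Spry2, Spry4, Dusp6, Etv4 and Etv5. Each of the 9 symbols was found once. Polyadenylated RNA was sequenced from 19 embryos, each lysed alone at 96 hours after insemination. All 19 came from in vitro fertilisation, carry the strain label B6D2F1 and were grown in KSOM culture medium at 37 °C under 5% CO2.

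Parents were Alyref+/- mice, Gabpb1+/- mice or wild-type (WT) B6D2F1 mice. The Alyref protein is an adaptor for mRNA export, and Gabpb1 encodes a subunit of the transcription factor GABP. Of the morulae, 2 were Alyref KO and 3 non-KO from the Alyref cross, and 3 were labelled Gabpb1 KO and 2 non-KO from the Gabpb1 cross. Of the blastocysts, 3 were non-KO from each cross and 3 had WT parents. KO was assigned by the submitters from a lack of reads over the deleted region in these same libraries, and non-KO embryos are WT or heterozygous. No blastocyst was labelled KO in its sample title, so KO effects were measured in morulae alone. The deposited column headers write KO for every embryo of both crosses, so the groups follow the sample titles. The labels name no litter or sequencing batch, so a batch effect and a cross effect cannot be told apart, and p-values measure the spread between these embryos. Morulae and blastocysts were both taken at 96 hours, so comparisons of stage are between embryos of the same age. A stage difference and slower development of the morulae cannot be told apart. Rises and falls from morula to blastocyst below are such differences.

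FGF ligands bind receptor tyrosine kinases together with heparan sulfate and switch on the Ras-ERK kinase cascade. In the mouse blastocyst, cells of the early epiblast make FGF4, and ERK signalling downstream of FGFR1 and FGFR2 directs other inner cells to primitive endoderm. FGF4 also keeps trophoblast stem cells dividing through FGFR2, which is abundant in trophectoderm, the outer layer of the blastocyst. ERK activity switches on its own brakes, the Sprouty proteins and the ERK phosphatase DUSP6, and the ETS factors ETV4 and ETV5, so transcripts of these genes are widely read as a record of FGF signalling.

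Gene counts ran from 7.49 to 31.5 M (megacounts) per embryo, with a median of 13.6 M. Levels are given as CPM, counts over the TMM-scaled library size in M, and levels are compared between genes only as FPKM, which also divides by exon length. Alyref was at 47.8 and 58.5 CPM in the Alyref KO morulae and at 161 to 291 CPM in non-KO morulae of the same cross (log2 fold change -2.05, adjusted p 0.0227). The KO label was itself assigned from reads over the deleted region in these libraries, so this test is no independent check of it. The edgeR call was also lost with ERCC spike-in scaling (adjusted p 0.893) and with the compared groups alone (0.559). Embryos labelled Gabpb1 KO did not have less Gabpb1 transcript, with 78.2, 259 and 151 CPM beside 93.8 and 83.3 CPM in non-KO morulae (log2 fold change 0.88, adjusted p 0.243). The direction of each Gabpb1 result below rests on those labels. Markers of cumulus or granulosa cells summed to at most 3.46 CPM and those of sperm to at most 3.01 CPM in any embryo, with Fshr, Tnp1 and Akap4 at 0 in all 19. Of the embryonic lineages, 14 trophectoderm markers summed to 651 to 3673 CPM in KO and Alyref cross morulae, 4269 and 5974 CPM in the Gabpb1 cross non-KO morulae and 6538 to 10516 CPM in blastocysts. Sums of markers lean on their most abundant genes, here Krt18 and Krt8 with medians of 2069 and 1211 CPM over the 19 embryos. In such whole embryos, fewer cells of a type and less RNA per cell cannot be told apart.

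All 9 genes were read, and 8 were tested, since a gene was tested only if it reached FPKM 1 in at least 2 of the 19 embryos. Dusp6 and Fgfr2 had the highest levels, with mean FPKM over the 19 embryos of 8.26 and 7.32. Etv5 at 5.97 and Spry2 at 5.31 came next. A lower tier held Fgf4 at 2.80, Fgfbp1 at 2.64 and Fgfr1 at 2.42. Spry4 at 0.443 and Etv4 at 0.220 were at the bottom. The ranges of each pair of neighbours in this order overlapped over embryos. Within embryos, however, Spry2 lay above Fgf4 in 19 of 19 and Fgfr1 above Spry4 in 18 of 19, whereas Dusp6 lay above Fgfr2 in 10 of 19 and Fgfbp1 above Fgfr1 in 9 of 19. Spry4 passed the filter through 3 embryos, all blastocysts: WT embryos 2 and 3 and the third of the Gabpb1 cross. Etv4 had at most 42 counts and no FPKM above 0.825, so it was not tested.

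**Figure D1:**
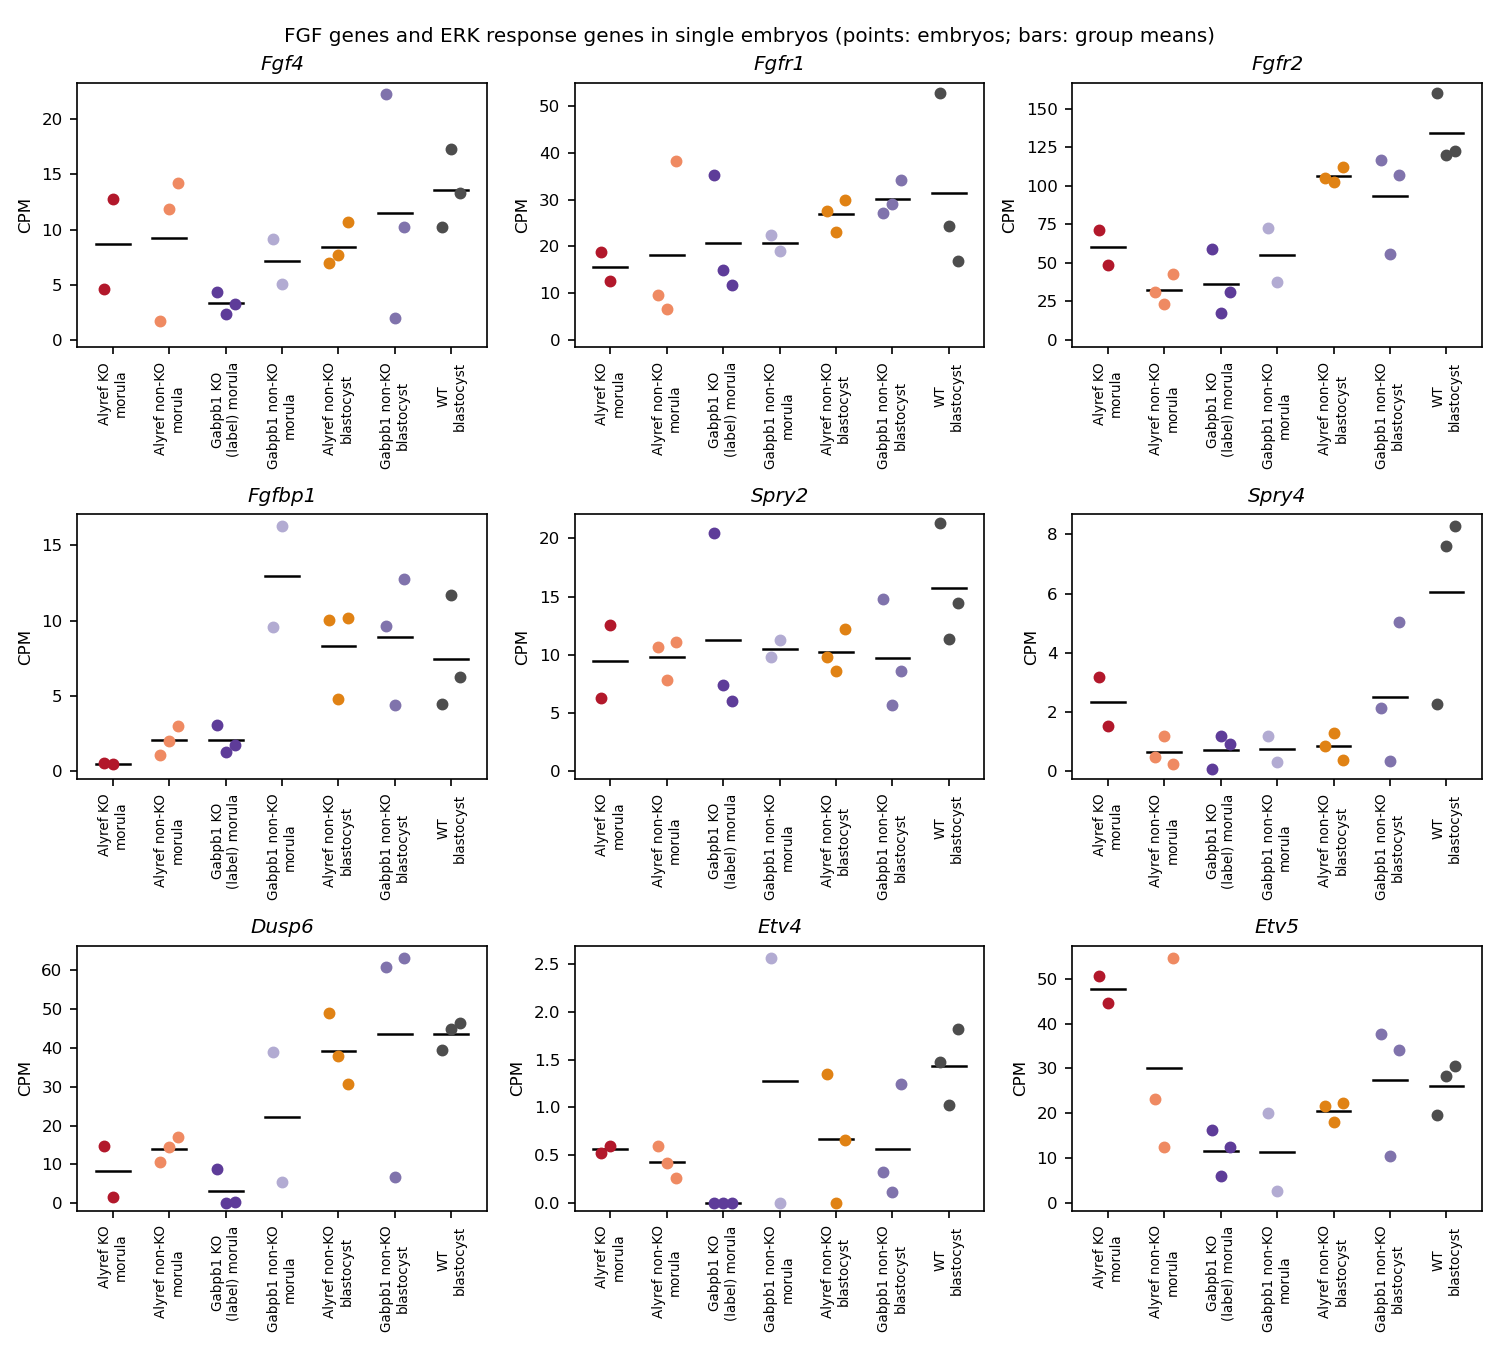
Level in CPM (vertical axis, linear, own scale per gene) of the 9 genes in each of the 19 embryos, grouped along the horizontal axis by cross, label and stage; points are embryos and bars are group means. Fgfbp1 is low in every KO and Alyref cross morula and high in both Gabpb1 cross non-KO morulae, and 8 of the 9 blastocysts lie above every morula for Fgfr2.

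Fgf4 (ENSMUSG00000050917.5, chromosome 7, 144847367 to 144865243, plus strand, GRCm38) is the ligand that epiblast cells supply. It was at 4.30, 2.31 and 3.26 CPM in the morulae labelled Gabpb1 KO and at 9.11 and 5.10 CPM in their non-KO counterparts. The 2 groups did not overlap, but the difference did not pass the test: log2 fold change -1.11 (SE 0.80), adjusted p 0.477 by edgeR's quasi-likelihood test with Benjamini-Hochberg (BH) adjustment. In the Alyref cross the KO morulae were at 4.62 and 12.8 CPM, inside the 1.74, 11.9 and 14.2 CPM of the non-KO morulae. The log2 fold change there was -0.07, and 2 SE on either side reach from -1.68 to 1.53, so a change of more than 2-fold in either direction is within the error. Blastocysts had 6.93, 7.69 and 10.7 CPM in the Alyref cross, 22.3, 2.01 and 10.2 in the Gabpb1 cross and 10.3, 17.3 and 13.3 from WT parents. The second Gabpb1 cross blastocyst was thus the lowest of the 9 blastocysts and the first was the highest, and the group mean of 11.5 ± 10.2 CPM (SD, n = 3) describes neither. Averaged over both crosses, the blastocyst level differed from the morula level by 0.28 on the log2 scale (SE 0.54, adjusted p 0.790).

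Fgfr2 (ENSMUSG00000030849.18, chromosome 7, 130162451 to 133123350, minus strand) was higher in blastocysts than in morulae of the same age. Alyref cross non-KO morulae were at 31.1, 23.4 and 42.7 CPM, and the blastocysts of that cross were at 105, 102 and 112 CPM. All 3 blastocysts lay above all 3 morulae, and the 3.29-fold difference passed the test (log2 fold change 1.72, SE 0.40, adjusted p 0.0164). In the Gabpb1 cross the non-KO morulae were at 72.5 and 37.3 CPM, and the blastocysts at 116, 55.7 and 107 CPM overlapped them. The log2 fold change in that cross was 0.76 (SE 0.45, adjusted p 0.793). The test of the difference between the 2 crosses gave -0.96 (SE 0.58, adjusted p 0.475), so the stage difference was not shown to differ between them. Over both crosses together Fgfr2 was higher in blastocysts by 1.24 on the log2 scale (SE 0.30, adjusted p 0.0348).

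WT blastocysts had the most Fgfr2, at 160, 120 and 123 CPM, above every blastocyst of either cross. The log2 fold changes against WT were -0.33 (SE 0.39) for the Alyref cross and -0.53 (SE 0.39) for the Gabpb1 cross, and neither passed the test. The Alyref KO morulae, at 71.5 and 48.2 CPM, were both above the 3 non-KO morulae (log2 fold change 0.88, SE 0.43, adjusted p 0.435), while the morulae labelled Gabpb1 KO, at 59.1, 17.7 and 30.8 CPM, overlapped their non-KO morulae (log2 fold change -0.61, SE 0.43). Between the 2 KO effects the log2 difference was -1.50 (SE 0.61, unadjusted p 0.0264, adjusted p 0.233). The Fgfr2 row shares exon bases with Ctbp2 on the same strand, which held 17787 counts in all, and reads in shared exons cannot be assigned to one gene.

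Fgfr1 (ENSMUSG00000031565.18, chromosome 8, 25513654 to 25575718, plus strand) varied widely within some groups. Alyref cross non-KO morulae held 9.56, 6.58 and 38.2 CPM, so the third stood far above its companions, and the first morula labelled Gabpb1 KO, at 35.4 CPM, was above the others at 15.0 and 11.6 CPM. Blastocysts of the crosses lay between 23.0 and 34.1 CPM and those from WT parents at 52.8, 24.4 and 16.9 CPM. No comparison of Fgfr1 passed the test. From morula to blastocyst its log2 fold change was 0.57 (SE 0.57) in the Alyref cross and 0.54 (SE 0.64) in the Gabpb1 cross, where the 3 blastocysts lay above both morulae at 22.3 and 19.1 CPM. Without the third Alyref cross non-KO morula the rise in that cross was 1.73 with an adjusted p of 0.0230, and over both crosses 1.13 with an adjusted p of 0.0386. Leaving out that embryo raised the share of all genes called too, from 13% to 24.8% and from 4.36% to 15.9%. The KO log2 fold changes were -0.21 (SE 0.64) for Alyref and 0.00 (SE 0.64) for Gabpb1. The antisense gene Gm16159 overlaps Fgfr1 and held 143 counts in all.

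Fgfbp1 (ENSMUSG00000048373.8, chromosome 5, 43978858 to 43981779, minus strand) encodes a secreted protein that releases FGFs from heparan sulfate in the extracellular matrix. It was the one member that passed the test in a KO comparison. The morulae labelled Gabpb1 KO were at 3.10, 1.30 and 1.77 CPM and the non-KO morulae of that cross at 9.60 and 16.3 CPM. All 3 lay below both, a 6.27-fold lower level (log2 fold change -2.65, SE 0.57, adjusted p 0.0343). The counts behind these values are 36, 14 and 25 against 135 and 214. The Gabpb1 comparison thus called 1 of 8 tested members, lower, where 1.65% of the 18410 genes tested were called. Non-overlap held for 2 of the 8, Fgf4 and Fgfbp1, and for 32.2% of all genes tested.

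Compared with the other cross, the Gabpb1 cross non-KO morulae were the group that stood apart. Alyref cross non-KO morulae had 1.09, 2.02 and 3.04 CPM of Fgfbp1, overlapping the morulae labelled Gabpb1 KO. Against those Alyref cross morulae, the Gabpb1 cross non-KO morulae were 6.30-fold higher (log2 fold change 2.66, SE 0.57, adjusted p 0.0361), in a comparison that called 1 of 8 members and 1.86% of all genes. These 2 comparisons share the same 2 Gabpb1 cross non-KO morulae. The same 2 embryos were ahead in trophectoderm markers: their sums of 5974 and 4269 CPM lay above the 651 to 3673 CPM of the labelled KO morulae and the 1035 to 2871 CPM of the Alyref cross non-KO morulae. Cldn4, a tight junction gene of trophectoderm, was lower in the morulae labelled Gabpb1 KO (log2 fold change -1.18, adjusted p 0.0446) and higher in the Gabpb1 cross non-KO morulae than in those of the Alyref cross (1.34, adjusted p 0.0334). Both Cldn4 calls were lost without the second Gabpb1 cross non-KO morula, at -0.64 (adjusted p 0.443) and 0.80 (0.301). With ERCC spike-in scaling their adjusted p-values were 0.393 and 0.336, with the compared groups alone 0.327 and 0.379, and with the replicate number as a block the first was 0.0622. Without the second or the third labelled KO morula the first was 0.113 and 0.0913, and without the first or second Alyref cross morula the other was 0.0966 and 0.115. Of the 14 trophectoderm markers, 12 had a negative and 2 a positive fold change with the Gabpb1 KO label, and 1 was called.

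Fold changes of inner lineage markers were also mostly of one sign. Of 12 primitive endoderm markers, 9 had a negative and 3 a positive fold change with the Gabpb1 KO label, with a median log2 fold change of -1.71, 0 called and 4 at an unadjusted p under 0.05. They summed to 293 to 769 CPM in the labelled KO morulae and to 873 and 900.3 CPM in the non-KO morulae. Of 12 epiblast markers, 11 had a positive fold change with the label, with a median of 0.52 and 0 called, and their sums of 4411 to 6625 CPM lay above the 3484 and 4289 CPM of the non-KO morulae. Between the non-KO morulae all 12 epiblast markers had a negative fold change, with a lower level in the Gabpb1 cross and a median of -0.97. Nanog, a pluripotency factor of the epiblast, was the 1 called there (-1.38, adjusted p 0.0334). It lost that call without the second Gabpb1 cross morula (adjusted p 0.247), without the first or second Alyref cross morula (0.0951 and 0.100), with ERCC scaling (0.688) and with the compared groups alone (0.379). The part of these lineage differences in the Fgfbp1 result was not tested.

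**Figure D2:**
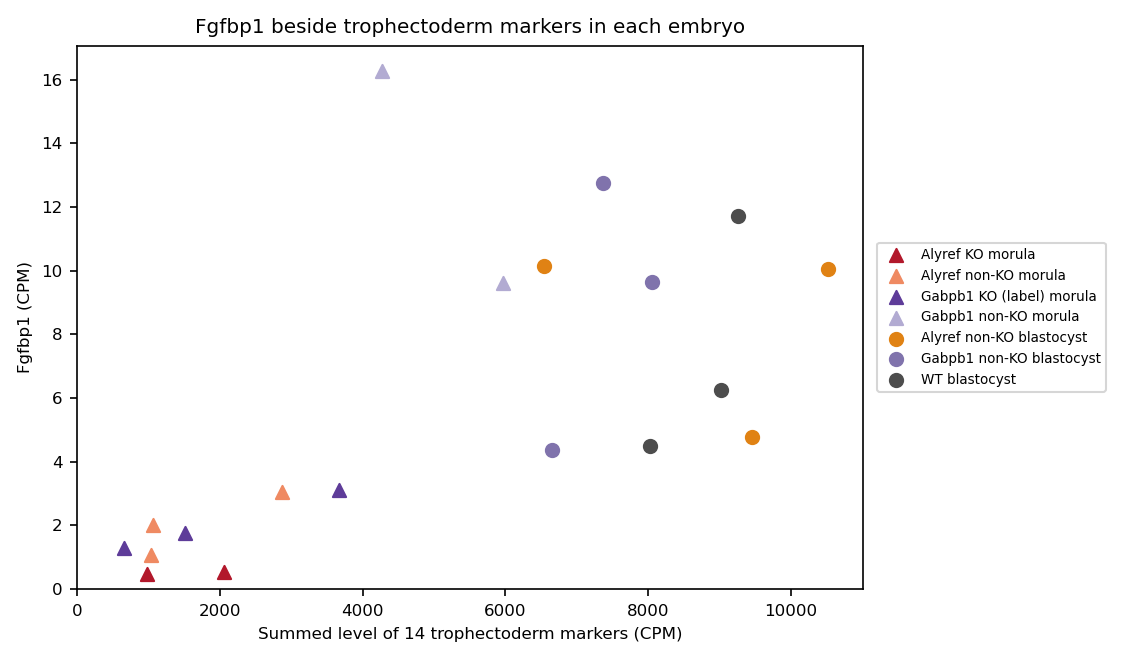
Fgfbp1 in CPM (vertical axis) against the summed level of 14 trophectoderm markers in CPM (horizontal axis) in each of the 19 embryos; triangles are morulae and circles blastocysts, coloured by group. The 8 KO or Alyref cross morulae lie at 3.10 CPM of Fgfbp1 or lower, and both Gabpb1 cross non-KO morulae lie at 9.60 or higher with marker sums between those morulae and the blastocysts.

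The call did not survive several alternatives. The adjusted p of Fgfbp1 in the Gabpb1 comparison was 0.0972 and 0.0861 without the second or the third labelled KO morula and 0.0535 and 0.253 without the first or second non-KO morula, and between the non-KO morulae it was 0.102 and 0.122 without the first or second of the Alyref cross and 0.0563 and 0.238 without the first or second of the Gabpb1 cross. With ERCC scaling the 2 adjusted p-values were 0.240 and 0.219, and with the compared groups alone 0.319 and 0.379. Over all genes, ERCC scaling called 26 and 2 in these comparisons and the compared groups alone 0 and 0. The fit of all 19 embryos with TMM scaling called 303 and 342.

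Alyref KO morulae had the least Fgfbp1 of all embryos, at 0.528 and 0.467 CPM from 4 and 7 counts, below the 3 non-KO morulae. The log2 fold change was -2.03 (SE 0.69, unadjusted p 0.00937), and the adjusted p was 0.224. Blastocysts of the Alyref cross had 10.1, 4.78 and 10.2 CPM of Fgfbp1, 4.06-fold higher than its non-KO morulae (log2 fold change 2.02, SE 0.53, adjusted p 0.0244). In the Gabpb1 cross, with its high morulae, blastocysts at 9.63, 4.38 and 12.8 CPM overlapped the morulae (-0.53, SE 0.55, adjusted p 0.903), and the difference between the 2 stage effects was -2.55 (SE 0.75, unadjusted p 0.00386, adjusted p 0.218). WT blastocysts, at 4.49, 11.7 and 6.25 CPM, overlapped both crosses.

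The 250 bases before the RefSeq start of Fgfbp1 and of Dusp6 are shown. They were chosen as the 2 members with an unadjusted p under 0.05 in the Gabpb1 comparison. GABP binds ETS family sites, of which only the form CCGGAA was searched. Sequences are from RefSeq on GRCm38.p6, 5′ to 3′ on the gene's strand, and capitals mark the only match to the 4 motifs searched, a CCAAT box, here on the reverse strand as ATTGG. The Fgfbp1 window is chr5:43981800-43982049 (minus strand) and the Dusp6 window chr10:99262981-99263230 (plus strand).
Fgfbp1: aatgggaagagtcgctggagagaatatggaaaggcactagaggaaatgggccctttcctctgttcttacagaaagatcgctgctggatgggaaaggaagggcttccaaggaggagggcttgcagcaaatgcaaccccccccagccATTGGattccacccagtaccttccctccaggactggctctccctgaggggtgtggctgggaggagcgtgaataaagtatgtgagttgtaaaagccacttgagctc
Dusp6: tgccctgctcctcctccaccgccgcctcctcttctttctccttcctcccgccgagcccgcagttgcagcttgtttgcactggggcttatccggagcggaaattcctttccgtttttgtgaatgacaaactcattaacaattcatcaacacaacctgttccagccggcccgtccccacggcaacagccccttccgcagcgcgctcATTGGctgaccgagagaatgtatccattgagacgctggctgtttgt
The match begins 105 bases before the start in Fgfbp1 and 46 bases before it in Dusp6.

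RefSeq promoters were at hand for 6 of the 9 genes (7 windows: Fgfbp1, Fgfr2, Fgf4, Dusp6, Spry2 and 2 of Etv5), and each motif was searched on both strands. CCGGAA was in none of the 6 genes' windows and in 12.0% of all 32851 promoter windows. Shorter or other forms of ETS sites were not searched, so their absence is not shown. The AP-1 site TGANTCA (6.75% of all windows) and the TEAD site CATTCC (12.6%) were in none either. CCAAT, chosen after the windows had been read, was in those of Fgfbp1, Fgf4, Dusp6 and Etv5, 5 of the 7 windows, since both of Etv5 held it, against 33.8% of all windows.

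Dusp6 (ENSMUSG00000019960.8, chromosome 10, 99263231 to 99267489, plus strand), the cytoplasmic ERK phosphatase, ran from 0 to 38.9 CPM among morulae. The morulae labelled Gabpb1 KO had 8.78, 0 and 0.355 CPM, from 102, 0 and 5 counts. Their non-KO morulae had 38.9 and 5.55 CPM, so the second of these lay below the first KO embryo and the groups overlapped. The log2 fold change of -2.87 (SE 1.25, unadjusted p 0.0354) had an adjusted p of 0.230. It rested on single embryos: without the first labelled KO morula it was -6.77 (adjusted p 0.0210), and on leaving out the first non-KO morula it was -0.87 (adjusted p 0.821).

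In the Alyref cross the KO morulae had 14.8 and 1.67 CPM of Dusp6 and the non-KO morulae 10.6, 14.4 and 17.1 (log2 fold change -0.80, SE 1.26). Blastocysts of that cross were at 49.0, 37.8 and 30.8 CPM, all above the morulae, yet the stage difference of 1.48 (SE 1.09) had an adjusted p of 0.372. The other blastocysts were at 60.8, 6.75 and 63.2 CPM in the Gabpb1 cross and 39.4, 44.9 and 46.4 CPM from WT parents. A single blastocyst, the second of the Gabpb1 cross, thus lay below all the others and within the range of the morulae. Over both crosses the stage difference was 1.23 (SE 0.83, adjusted p 0.385).

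Spry2 (ENSMUSG00000022114.5, chromosome 14, 105891947 to 105896819, minus strand), an inhibitor of receptor tyrosine kinase signalling upstream of ERK, was the steadiest member, with a 3.75-fold span between its lowest and highest embryo. Group means ran from 9.47 CPM in Alyref KO morulae to 15.7 CPM in WT blastocysts. The log2 fold changes were -0.05 (SE 0.51) for the Alyref KO, 0.10 (SE 0.51) for the Gabpb1 KO label and -0.03 (SE 0.34) for stage over both crosses. Changes of up to about 2-fold fit inside 2 SE of each KO value, from -1.06 to 0.97 for Alyref. The highest morula, at 20.5 CPM, was the first of those labelled Gabpb1 KO, which was also the highest of those 3 for the other tested genes except Spry4, of which it had the least, and for the summed trophectoderm markers at 3673 CPM.

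Spry4 (ENSMUSG00000024427.6, chromosome 18, minus strand), its relative, was scarce in morulae, at 0.0861 to 3.17 CPM. Alyref KO morulae, at 3.17 and 1.53 CPM, were above the non-KO morulae at 0.489, 1.18 and 0.259 (log2 fold change 1.87, SE 1.00, adjusted p 0.488). The Gabpb1 comparison gave -0.04 (SE 1.04). WT blastocysts held 2.28, 7.62 and 8.27 CPM. Blastocysts of the Alyref cross, at 0.870, 1.30 and 0.379 CPM, all lay below them (log2 fold change -2.80, SE 0.92, unadjusted p 0.00797, adjusted p 1.00). In the Gabpb1 cross the blastocysts had 2.14, 0.355 and 5.03 CPM and overlapped WT (-1.25, SE 0.87, adjusted p 0.901). Spry4 was tested only because WT embryos 2 and 3 and the third Gabpb1 cross blastocyst passed the filter. The filter thus leaned on the WT group, so the p-values against WT cannot show a difference. Against WT blastocysts 12 of 12 primitive endoderm markers had a negative fold change in each cross, with medians of -1.70 (5 at an unadjusted p under 0.05) and -1.04 (2), and 0 called. They summed to 918 to 1244 CPM in the Alyref cross, 974 to 1410 CPM in the Gabpb1 cross and 1120 to 2075 CPM from WT parents, and their part in the Spry4 values was not tested.

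Etv5 (ENSMUSG00000013089.15, chromosome 16, 22381309 to 22439719, minus strand), an ETS transcription factor induced by ERK, had its highest values in Alyref cross morulae. The Alyref KO morulae were at 50.7 and 44.6 CPM and the non-KO morulae at 23.2, 12.5 and 54.7 CPM. Morulae of the Gabpb1 cross had 16.4, 6.02 and 12.4 CPM with the KO label and 20.0 and 2.59 CPM without, and overlapped the second Alyref cross non-KO morula. The non-KO morulae of one cross against the other gave -1.41 on the log2 scale (SE 0.75), with an adjusted p of 0.272. Within each cross the groups overlapped, with log2 fold changes of 0.66 (SE 0.70) for Alyref and 0.04 (SE 0.72) for Gabpb1. Blastocysts lay between 10.4 and 37.6 CPM, and the second of the Gabpb1 cross was again the lowest.

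Etv4 (ENSMUSG00000017724.14, chromosome 11, 101769742 to 101785371, minus strand), its relative, was near the limit of detection. It had 0 counts in 5 embryos, among them all 3 morulae labelled Gabpb1 KO. Their non-KO morulae had 36 and 0 counts, so the groups overlapped at 0 and a difference was not detectable at this depth. With no filter on low values the Gabpb1 comparison of Etv4 had an unadjusted p of 0.00129 and an adjusted p of 0.0881.

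Counted by comparison, few members passed. Between Alyref KO and non-KO morulae edgeR called 0 of 8 members and 0.228% of the 18410 genes. Fgfbp1 alone had an unadjusted p under 0.05 there, and DESeq2 also called 0 of 8. Fgfr2, Fgfbp1 and Spry4 did not overlap between these groups, 3 of 8 members, where 24.9% of all genes did not. The test of the Gabpb1 against the Alyref KO effect called 0 of 8 members by edgeR and by DESeq2 and 0.907% of genes, with Fgfr2 alone under an unadjusted p of 0.05. Its log2 difference was -0.61 (SE 0.91) for Fgfbp1 and -2.07 (SE 1.73) for Dusp6, so neither was shown to respond differently to the 2 labels.

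From morula to blastocyst the Alyref cross called 2 of 8 members, Fgfr2 and Fgfbp1, both higher, where 13% of all genes were called. Non-overlap held for Fgfr2, Fgfbp1 and Dusp6, 3 of 8, and for 38.9% of all genes. The median log2 fold change of the 8 was 0.51 beside -0.04 for all genes. The Gabpb1 cross called 0 of 8 and 0% of genes, with 1237 genes and no member at an unadjusted p under 0.05. DESeq2 called 57 genes there and 0 members. The 8 members had a median of 0.73 beside 0.02 for all genes, and Fgfr1 alone did not overlap, in a comparison where 23.1% of all genes did not. Over both crosses 1 of 8 was called, Fgfr2, beside 4.36% of genes, and the test between the crosses called 0 of 8 by edgeR and by DESeq2 and 0.00543% of genes, with Fgfbp1 alone under an unadjusted p of 0.05.

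Of 14 trophectoderm markers, 5 were called higher and 2 lower in blastocysts than in morulae of the Alyref cross, and 12 had a positive fold change. Of 12 epiblast markers 5 were called lower there, and of 12 primitive endoderm markers 1 was called higher. The part of these markers in the Fgfr2 and Fgfbp1 results was not tested. Under ERCC scaling the adjusted p in the Alyref cross was 0.450 for Fgfr2 and 0.348 for Fgfbp1, and with the compared groups alone it was 0.0517 and 0.0697. Over all genes these settings called 352 and 24 in that cross. Over both crosses ERCC scaling gave Fgfr2 0.498. Some stage calls were lost on leaving out 1 embryo. The log2 fold changes in the Alyref cross then stayed at 1.53 to 1.97 for Fgfr2 and 1.71 to 2.43 for Fgfbp1. In the Alyref cross Fgfr2 had adjusted p-values of 0.0547, 0.0812, 0.0553 and 0.0541 on leaving out the first or second morula or the first or second blastocyst. For Fgfbp1 the values were 0.0880, 0.0930, 0.0834 and 0.0682 on leaving out the first or second morula or the first or the third blastocyst. Over both crosses Fgfr2 lost its call, with an adjusted p from 0.0613 to 0.177, without the first or second Alyref cross morula, the second Gabpb1 cross morula, any of the 3 Alyref cross blastocysts or the first or the third Gabpb1 cross blastocyst.

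Against WT blastocysts, edgeR and DESeq2 each called 0 of 8 members in the Alyref cross and 0 of 8 in the Gabpb1 cross. edgeR called 0% of genes in both comparisons, which share the 3 WT embryos, with 541 and 1123 genes at an unadjusted p under 0.05, and DESeq2 called 15 and 42. Spry4 in the Alyref cross was the one member with an unadjusted p under 0.05, and it had passed the filter largely through WT embryos. Fgfr2 did not overlap in either comparison and Spry4 in the Alyref cross, where 12.2% and 12.8% of all genes did not.

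**Figure D3:**
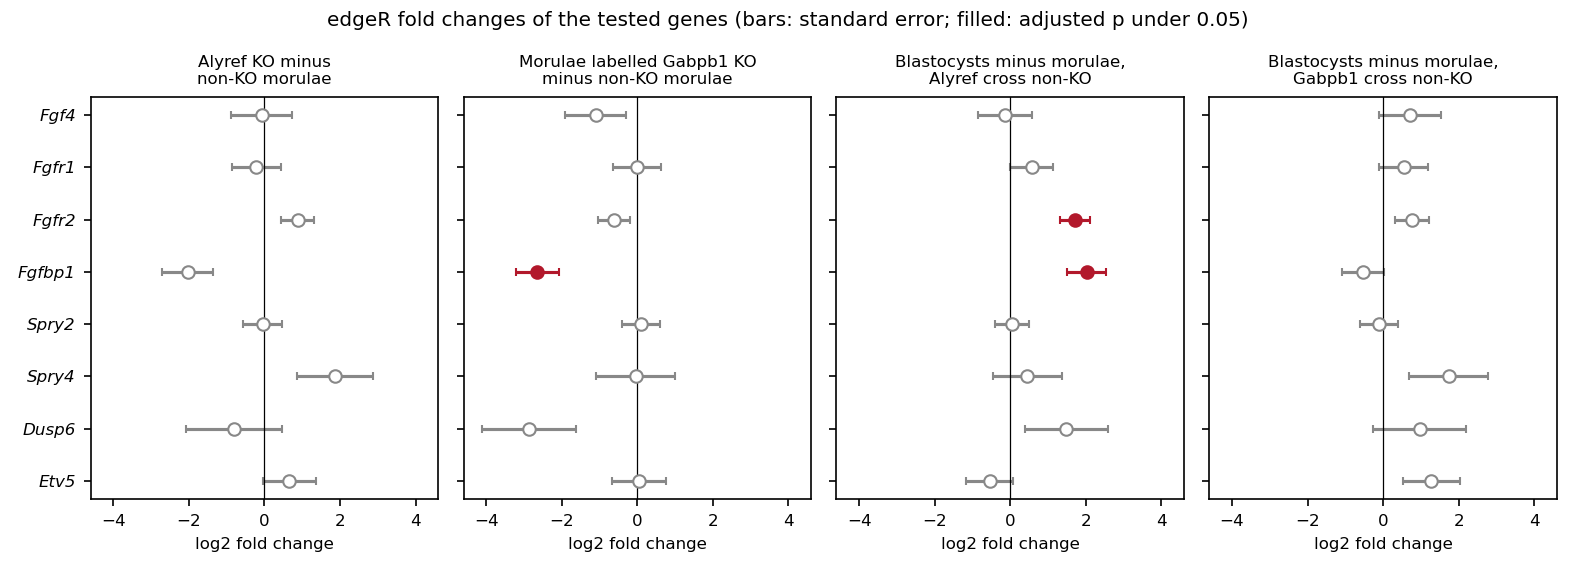
Log2 fold changes from edgeR (horizontal axis) with bars of 1 standard error for the 8 tested genes (vertical axis) in both KO comparisons and in both comparisons of non-KO blastocysts with non-KO morulae; filled symbols have an adjusted p under 0.05. Filled symbols are Fgfbp1 at -2.65 with the Gabpb1 KO label, and Fgfr2 at 1.72 and Fgfbp1 at 2.02 between stages of the Alyref cross.

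Whether response genes tracked the ligand from embryo to embryo was examined within each stage, on log2(CPM + 1), for 5 genes and 2 stages, 10 relations in all with BH adjustment over them. Across 9 blastocysts Etv5 rose with Fgf4, with Pearson r 0.90 (exact permutation p 0.00212, adjusted 0.0212) and Spearman rho 0.75 (exact permutation p 0.0255, adjusted 0.184). Without the 2 blastocysts farthest from the median of Fgf4, r was 0.59 over 7 embryos (exact permutation p 0.168, adjusted 0.562), so passing the test rests on those 2, and leaving them out also narrows the range of Fgf4. Left out alone, the second Gabpb1 cross blastocyst, lowest in Fgf4 at 2.01 CPM and in Etv5 at 10.4 CPM, took r to 0.75 (exact permutation p 0.0353, adjusted 0.353). That embryo was also the lowest blastocyst for Fgfr2, Fgfbp1, Spry2, Spry4 and Dusp6, and had the fewest gene counts of the blastocysts, 8.64 M. Its part in r beyond Fgf4 was not tested. The permutations took all blastocysts as exchangeable, without regard to cross or parents.

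Dusp6 had r 0.84 and rho 0.35 with Fgf4 across blastocysts (exact permutation p 0.0212 and 0.359, adjusted 0.106 and 0.448), and r was 0.03 without the 2 farthest embryos. For Spry2 r was 0.70 and rho 0.72 (exact permutation p 0.0375 and 0.0369, adjusted 0.13 and 0.184), with r 0.32 without those 2. Spry4 had r 0.61 and rho 0.60, and Etv4 r 0.36 and rho 0.20, with adjusted exact permutation p-values from 0.183 to 0.682. Over 10 morulae no relation passed, by permutation over the embryos: r was 0.42 for Dusp6, 0.41 for Etv5, 0.36 for Etv4, 0.18 for Spry2 and 0.07 for Spry4. Each cross or parent group holds 3 blastocysts, too few for a relation within it.

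**Figure D4:**
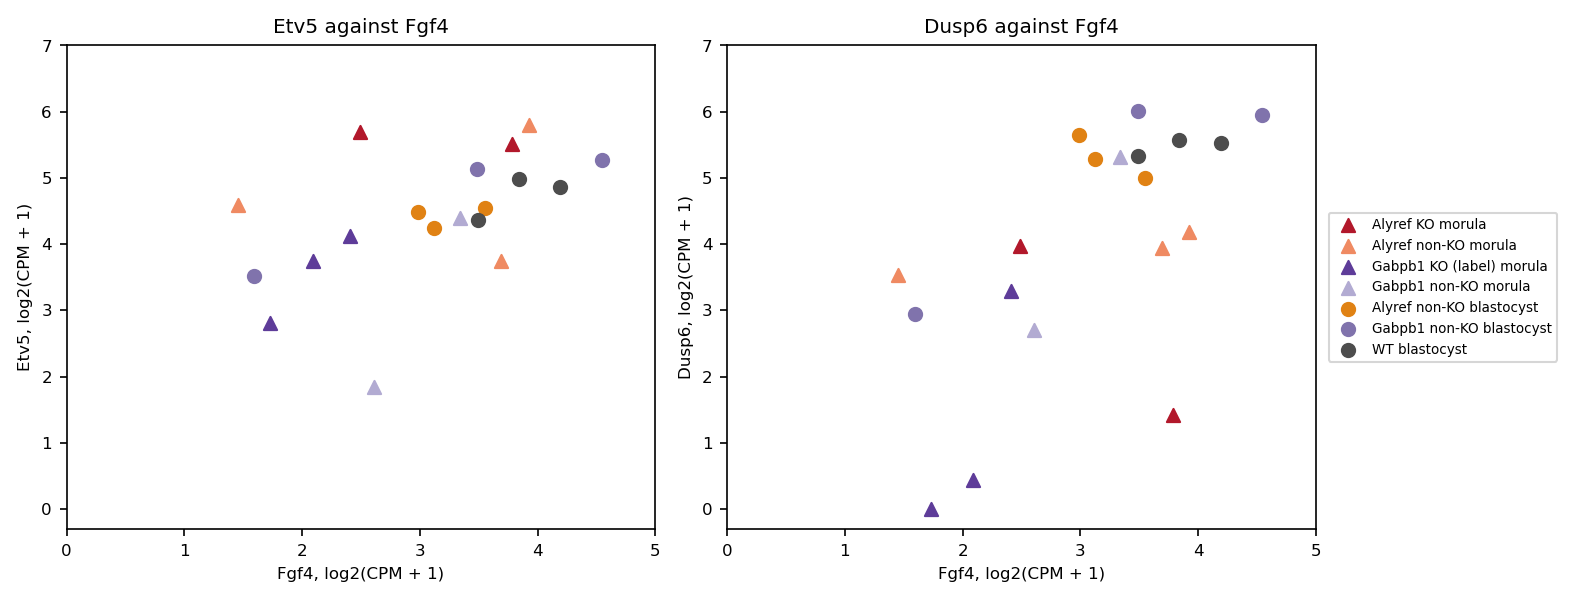
Etv5 (left) and Dusp6 (right) against Fgf4, all on log2(CPM + 1), in each of the 19 embryos; triangles are morulae and circles blastocysts, coloured by group. Among blastocysts the second of the Gabpb1 cross lies apart at the lower left in both panels.

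Genes with the most similar pattern were named from the 9187 tested genes with a mean of 5 CPM or more, as the 3 with the highest Pearson r on log2(CPM + 1) over the 19 embryos, both stages together. Fgfr2 was closest to Rhobtb2 (r 0.96), Arhgap17 (0.95) and Llgl2 (0.94), and Fgfbp1 to Cldn4 (0.94), Rpn2 (0.92) and Daglb (0.92). Dusp6 was closest to Fez2 (0.93), Upp1 (0.92) and Mtap (0.91), and Fgfr1 to Csk, Clstn1 and C77080 (0.89 each). The other members had no gene above 0.86: Luc7l3 for Spry2 (0.85), Sf3a1 for Etv5 (0.80), Zfp771 for Spry4 (0.79) and Ankrd52 for Fgf4 (0.76). These coefficients are a description over embryos that share a stage and a cross.

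Of 96 further genes listed for the pathway, 95 were found and 64 tested. Ligands other than Fgf4 were few: of 17, 3 were tested, and Fgf10 had the highest mean FPKM at 2.42, near the 2.80 of Fgf4, followed by Fgf3 at 1.44. Over the embryos Fgf10 ran from 0.0861 to 9.89 FPKM and Fgf4 from 0.544 to 6.98, so the near means hide a wider spread of Fgf10. Among receptors and coreceptors Klb, a coreceptor for endocrine FGFs, had 3.94, Fgfr4 1.52 and Fgfr3 0.315. Sdc4, a heparan sulfate proteoglycan of the cell surface, had the highest mean FPKM of the list at 87.7. The adaptor gene Grb2 had 20.0, the ERK phosphatase gene Dusp4 8.91 and Spry1 3.36.

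Flrt3, a membrane protein that binds FGF receptors, was the 1 of these 64 genes called with the Gabpb1 KO label, beside 1.65% of all genes. All 3 labelled KO morulae had 0 counts, and the non-KO morulae had 221 and 13 counts, 15.7 and 0.989 CPM. With 3 counts in each KO library as the floor it was at least 33.5-fold lower (adjusted p 0.0407), and at least 3.96-fold lower without the first non-KO morula, where the adjusted p was 0.231. The adjusted p was also 0.0915 and 0.0873 without the second or the third labelled KO morula, 0.0510 with ERCC scaling and 0.323 with the compared groups alone. Flrt3 had at most 8 counts in each Alyref cross morula, where Fgfbp1 had 4 to 47, and was at 5.09 to 36.9 CPM in all 9 blastocysts. The other pathway genes gave 0 calls in the Alyref KO comparison, beside 0.228% of all genes. Of the 64, 8 had an unadjusted p under 0.05 and DESeq2 called 3, beside 12.1% and 3.31% of all genes. Medians of the 64 were 0.12 for the Alyref KO beside -0.04 for all genes, and 0.00 for the Gabpb1 label beside 0.06.

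Between stages of the Alyref cross 8 of the 64 were called, beside the 13% of all genes. Among them Flrt3, Ext2, an enzyme that builds heparan sulfate chains (log2 fold change 1.28), and Hras (0.67) were higher in blastocysts. Sdc1, a cell surface heparan sulfate proteoglycan (-2.01), Grb2 (-0.97), the nuclear ERK phosphatase gene Dusp5 (-2.12) and Fgf1 were lower. Fgf1 was at 18, 225 and 0 counts in the morulae and at 3 or fewer in the blastocysts, so the groups overlapped. The mean of the morulae was 35.2-fold above a floor of 3 counts per blastocyst library, and 2.58-fold above it without the second morula. The size of the difference thus rests on that morula, and neither value is a lower bound. Each of the genes named here lost its call without some of the 6 embryos left out in turn, keeping it in 1 to 4 of the 6. With the compared groups alone none of them was called (adjusted p 0.0539 to 0.137), and under ERCC scaling Flrt3 alone was (0.0443, the others 0.102 to 0.861). Without a filter Hras (0.0809) and Dusp5 (0.0670) were not called, nor was Fgf1 with the replicate number as a block (0.0866). In the Gabpb1 cross 0 of 64 were called, with 5 at an unadjusted p under 0.05, beside 0% and 6.72% of all genes. Over both crosses 3 were called, beside 4.36% of all genes: Flrt3 higher, and Sdc1 (-1.57) and Jun (-1.43) lower. These 3 calls were all lost without the second Gabpb1 cross morula (adjusted p 0.161 for Flrt3, 0.250 for Sdc1 and 0.135 for Jun) and with the compared groups alone (0.0624, 0.0936 and 0.0795). ERCC scaling also ended that of Flrt3 (0.0697), and the replicate block that of Jun (0.0520). Leaving out each of the 11 embryos in turn, Flrt3 kept its call without the third Alyref cross morula, the first Gabpb1 cross morula or the second Gabpb1 cross blastocyst. Sdc1 kept it without the second Alyref or the first Gabpb1 cross morula, and Jun without the first or the third Alyref cross morula or the second Gabpb1 cross blastocyst. Jun overlaps its antisense gene Junos, which held 499 counts, and Dusp5 overlaps an antisense gene as well.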

How the data were processed

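The authors deposited 1 table with a column of raw counts per embryo and an exon length per gene. The file announces FPKM, but its deposited values are whole-number counts whose totals differ between embryos. The submitters' processing notes name Trimmomatic, Trim Galore, cutadapt, STAR, featureCounts and mm10, with no versions or strand setting. edgeR had been planned for counts and limma for FPKM, so edgeR was used.

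FPKM was computed from counts and exon length for the filter (FPKM 1 or more in at least 2 of 19 embryos, which kept 18410 of 39262 genes with any count) and for levels between genes. edgeR 4.0.16 (R 4.3.3) fitted 1 mean for each of the 7 groups with TMM scaling, and its quasi-likelihood test gave 10 comparisons with Benjamini-Hochberg adjustment over all 18410 genes. A gene was called at an adjusted p under 0.05. SE is the size of the log2 fold change over the square root of F. The 92 ERCC rows stayed out of totals. Counts after PCR are not independent molecules, so floors of 3 counts cover counting error alone. One gene of the pathway list is not reported here. Every planned comparison of the 9 members is given, and other genes are named where called, where most similar in pattern, or as markers. The method was tested on simulated data. Alternatives were DESeq2 1.42.0, its size factors, ERCC scaling, no filter, the compared groups alone, the replicate number as a block and leaving out each embryo. Members, gene lists and comparisons were chosen with earlier results of these data known.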

Additional observations from a re-analysis of the deposited data

How the results depend on the processing

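DESeq2's test, its size factors in place of TMM, and no filter on low values changed no count of members called. ERCC scaling moved the median of all genes by -0.40 on the log2 scale in the Gabpb1 KO comparison, -0.34 and -0.86 between stages of the Alyref and Gabpb1 crosses, -0.61 over both, 0.39 between non-KO morulae and 0.15 for the Alyref cross against WT. Under it 0 members were called in the Gabpb1 KO comparison, between stages of the Alyref cross, over both crosses and between non-KO morulae. Relative to those medians Fgfbp1 was at -2.48 with the Gabpb1 KO label, and Fgfr2 at 1.63 and 1.204 for stage in the Alyref cross and over both. The compared groups alone also gave 0 members with the Gabpb1 KO label, for stage in the Alyref cross and between non-KO morulae, where fewer embryos estimate the spread. Leaving out 1 embryo at a time gave 0 to 2 members called with the Gabpb1 KO label, 0 to 3 for stage in the Alyref cross, 0 to 2 over both crosses, 0 to 1 between non-KO morulae and 0 in each other comparison. An arm left with 1 embryo was assumed to vary like the other groups.

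Some values that had not passed the test changed sign, among them the difference between KO effects of Dusp6 (-2.07), Dusp6 for the Alyref KO (-0.80) and Fgfr2 between stages of the Gabpb1 cross (0.76). ERCC scaling gave -0.20 for Etv5 with the Gabpb1 KO label, -0.10 for Fgfr2 between stages of the Gabpb1 cross, and -0.21 for Fgf4, -0.22 for Fgfr1 and -0.36 for Etv5 over both crosses. Relative to the shifted medians these 5 values kept their sign, at 0.20, 0.76, 0.40, 0.39 and 0.25. Leaving out embryos spanned, for the Alyref KO, -0.9999 to 0.47 for Fgf4, -0.61 to 0.95 for Fgfr1, -0.64 to 0.35 for Spry2 and -3.07 to 0.074 for Dusp6. For the Gabpb1 KO label it spanned -0.64 to 0.28 for Fgfr1, -0.65 to 0.41 for Spry2, -0.71 to 1.25 for Spry4 and -0.78 to 2.16 for Etv5. The difference between KO effects of Dusp6 spanned -5.96 to 0.19, and stage over both crosses -0.17 to 0.53 for Fgf4, -0.25 to 0.10 for Spry2 and -0.046 to 1.43 for Etv5. The cause of the changes on leaving out embryos was not tested.

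The number of relations with Fgf4 that passed went from 1 to 3 under ERCC scaling, where Spry2 (r 0.79) and Dusp6 (0.86) joined Etv5 in blastocysts. ERCC scaling multiplies all genes of an embryo by 1 factor, which can raise r between any genes. Whether it did so here was not tested. The number that passed was 0 without the 2 embryos farthest from the median, where Spry2 in morulae had r -0.00087. It was 0 without the second Gabpb1 cross blastocyst, an alternative chosen after seeing the data, where Etv4 in blastocysts had r -0.053. The alternatives for genes that are no members were also added after seeing the data. By DESeq2 6 of the 64 pathway genes were called for the difference between KO effects and 4 with the Gabpb1 KO label. It called 14 for stage in the Alyref cross and 5 between non-KO morulae, and edgeR called 0, 1, 8 and 0. Of all genes with an adjusted p, DESeq2 called 5.77%, 8.1%, 22.7% and 11% in these comparisons.

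With the replicate number as a block, the same counts of members were called, 1 with the Gabpb1 KO label, 2 for stage in the Alyref cross, 1 over both crosses and 1 between non-KO morulae, and Fgf4 and Spry2 had 0.065 and 0.018 for the Alyref KO. Deviations of same-numbered embryos correlated between -0.10 and 0.16, and nothing in the labels says that a number marks a shared litter or day, so the numbers were not taken to pair embryos. The replicate block moved the genes called from 42 to 8 for the Alyref KO and from 803 to 401 for stage over both crosses.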

Other observations

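Some genes of the FGF pathway that were called in no comparison were abundant members of the Ras-ERK cascade and of its early nuclear response. Rps6ka1, an ERK-activated kinase gene, had a mean FPKM of 28.6 over the 19 embryos, and Map2k1, the MEK1 gene, 20.8. Of the early response genes Ier2 had 23.1 and Myc 7.44, beside 8.26 for Dusp6. The listed ligands Fgf17 and Fgf21 had 0 counts in all 19 embryos. Fgfbp3, the other FGF carrier on the list, had a mean FPKM of 2.19, beside 2.64 for Fgfbp1.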
